A study of Mus musculus with 2 samples.

Results

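Lymphocytes find their place in the spleen by following chemokines and lipid signals, which they sense with receptors that span the membrane and couple to Gi proteins. For B cells, CXCL13 marks the follicle, CCL19 and CCL21 mark the T cell zone, an oxysterol made by stromal cells marks the outer follicle, and sphingosine 1-phosphate (S1P) draws cells towards the blood. The accessible chromatin around the genes of 9 such receptors is described here: Cxcr5, Ccr7 and Gpr183, which place B cells within the white pulp, Cxcr4 and Ccr6, receptors for CXCL12 and CCL20, the S1P receptors S1pr1 and S1pr4, and 2 receptors with other homes, the gut homing receptor Ccr9 and the monocyte receptor Ccr2. They were taken by name as 9 of 22350 protein-coding genes on chromosomes 1 to 19 and X. Every DNaseI hypersensitive site (DHS) that touched the gene body or the 50 kb on either side of it was counted, which gave 154 of the 47542 DHS in the deposited list (47474 of these on the chromosomes used), and none of the 154 lay in more than 1 gene window. A set of 95 DHS that lay at a promoter of a member or had a transcription start site (TSS) of a member as the nearest TSS is used below for sequence content, and includes 26 promoter DHS and 65 distal DHS of the windows.

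The study mapped accessible chromatin in B cells of the spleen, taken with B220 MicroBeads from mice 8 weeks old. The mice were of the C57/Bl6 strain, carried both copies of the p53 gene (Trp53+/+) and had received mock treatment. DNaseI cuts open chromatin more readily than chromatin packed in nucleosomes, and regions rich in its cuts were called as peaks, each with a score. There was 1 DNaseI library and 1 input library, without replicates, so every comparison below is a description of this peak list and carries no p-value. The list holds no read counts, the sequencing depth is unknown, and where no DHS is listed, closed chromatin and too few reads cannot be told apart. The scale of the score is not stated; it ran from 5.05 to 619.44 with a median of 32.65, and is used to rank DHS within the list.

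As a check of the label, all 8 genes of a B cell list had a promoter DHS, with top scores from 83.97 at Cd22 to 294.30 at Cd37, and none of 8 T cell genes had one, while 57.0% of all protein-coding genes did. Promoter DHS were also called at 4 of 8 genes of monocytes and granulocytes (the highest 51.05 at Cd14), at 2 of 4 NK cell genes (highest 25.96), at 2 of 4 red cell genes (highest 177.81 at Klf1, a DNA-binding factor of red cells) and at 4 of 4 genes of stroma and vessels (highest 131.79 at Cdh5). The 4 of the monocyte and granulocyte list were Cd14, Elane (42.54), Itgam (18.16) and Csf3r (12.31), and the other 4, Lyz2, Csf1r, Mpo and Ly6g, had none. What such cells added to the DHS at the receptor genes was not tested.

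Most receptors had a promoter DHS. A promoter DHS, meaning a DHS that touched the 5 kb before or the 2 kb after an annotated TSS of the gene, was present at 8 of the 9 members, against 57.0% of all protein-coding genes. Ccr2 was the exception. The same 8 genes had a DHS within 1 kb of a TSS (53.7% of all genes) and a promoter DHS at or above the median score of the list (50.3% of all genes). A TSS itself was covered by a DHS at 7 of the 9 (46.6% of all genes), since the DHS nearest to the TSS of Gpr183 ended 42 bp away. Because the sample is a population of cells, a site open in few cells and a weakly open site in all of them cannot be told apart.

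Beside all genes with a promoter DHS, of any sequence class, the top promoter scores were not exceptional. Over the 8 genes the median was 92.44, against 101.2 over all genes with a promoter DHS, whose quartiles were 59.01 and 152.4. Cxcr4 stood highest at 234.06, above 91.61% of those genes, followed by S1pr4 at 142.88 and Cxcr5 at 126.88. Ccr7 (93.42), S1pr1 (91.46) and Ccr6 (85.71) lay close together in the middle of the distribution, but within 1 kb of a TSS the top score of Ccr6 was 34.04, the lowest of the 8. Ccr9 at 49.27 and Gpr183 at 44.64 were below the lower quartile, with 20.06% and 17.99% of genes below them. With 1 library, neighbours in this order cannot be separated from the error of the assay.

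**Figure D1:**
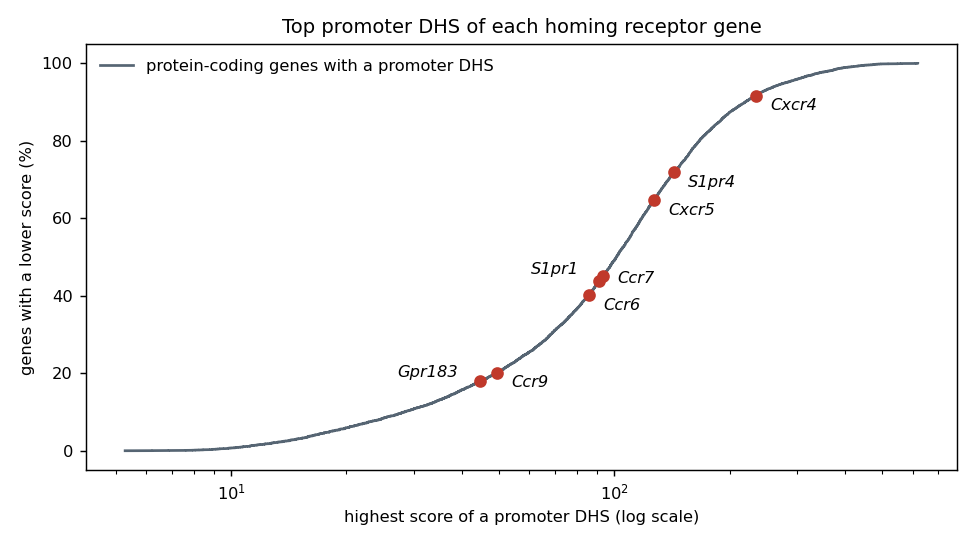
Highest promoter DHS score of each of the 8 members that had a promoter DHS (points; x axis, score without a stated unit, log scale), on the cumulative curve of all protein-coding genes with a promoter DHS (y axis, percent of genes with a lower score). Cxcr4 lies above 91.61% of genes and Gpr183 above 17.99%, and the other 6 lie between them, although Ccr6 would be lowest, at 34.04, within 1 kb of a TSS.

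Promoters rich in CpG are often accessible in any cell type, so the sequence class of the promoters was looked at as well. Only Ccr9 had a CpG-rich TSS, meaning 1000 bp around the TSS in which GC made up 55% or more of the bases and CpG occurred at 0.6 or more of the rate expected from the base content. Of the 8 members without a CpG-rich promoter, 7 had a promoter DHS, whereas 35.1% of the protein-coding genes in that class had one. Over these 7 the median top promoter score was 93.42, above the 74.62 of the genes in that class with a promoter DHS. For CpG-rich promoters of all genes the median was 113.8. Cxcr4 missed the class by its GC content, 52.40%, while its ratio of CpG to the expected rate was 0.6272, and S1pr1 missed it by that ratio, 0.5853, with a GC content of 59.10%. Gpr183 had the lowest GC content of the members, 37.50%.

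The bases just upstream of the start show this range. The 200 bases before the first TSS are given for Cxcr4, whose promoter DHS scored highest, for Cxcr5 and Ccr7, and for the genes whose start no DHS covered, Gpr183 and Ccr2. They were read from the mouse assembly mm9 on the strand of the gene, which is the minus strand for all but Ccr2, and all 200 bases were inside a DHS for the first 3 genes and none for the other 2. Capitals mark matches to any of 12 short words, on either strand: AGGAAGT (bound by Ets factors and PU.1), CCCNNGGG (EBF1), CAGCTG (an E box), ATGCAAAT (Oct), GGANTTTCC (NF-kappaB), GAAANNGAA (IRF), CCACCC (KLF), GTAAACA (Fox), TGTGGTT (Runx), GGNGGCAG (CTCF), TATAAA (the core of a TATA box) and CCGCCC (Sp).
Cxcr4, chr1:130488871-130489070: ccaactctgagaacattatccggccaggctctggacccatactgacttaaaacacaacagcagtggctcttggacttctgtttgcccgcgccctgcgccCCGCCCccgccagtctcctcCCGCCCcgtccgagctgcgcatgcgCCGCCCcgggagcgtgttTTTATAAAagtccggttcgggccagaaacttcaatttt
Cxcr5, chr9:44334505-44334704: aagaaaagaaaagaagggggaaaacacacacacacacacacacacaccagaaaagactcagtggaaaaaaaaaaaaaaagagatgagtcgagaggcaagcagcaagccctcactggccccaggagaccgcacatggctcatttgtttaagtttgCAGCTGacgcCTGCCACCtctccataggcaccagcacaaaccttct
Ccr7, chr11:99016392-99016591: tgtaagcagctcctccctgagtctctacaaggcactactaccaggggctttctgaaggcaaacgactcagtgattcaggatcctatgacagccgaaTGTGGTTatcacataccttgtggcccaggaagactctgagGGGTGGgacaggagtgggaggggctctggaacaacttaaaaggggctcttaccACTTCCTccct
Gpr183, chr14:122364416-122364615: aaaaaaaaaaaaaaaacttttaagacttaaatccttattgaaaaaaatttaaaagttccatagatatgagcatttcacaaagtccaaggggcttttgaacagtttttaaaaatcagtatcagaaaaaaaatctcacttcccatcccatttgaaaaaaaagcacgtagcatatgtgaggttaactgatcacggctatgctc
Ccr2, chr9:124016489-124016688: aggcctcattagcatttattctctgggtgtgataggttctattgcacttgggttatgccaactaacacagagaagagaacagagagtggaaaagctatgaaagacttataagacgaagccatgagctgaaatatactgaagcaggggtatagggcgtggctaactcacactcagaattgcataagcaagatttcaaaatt

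In Cxcr4 the capitals are 3 Sp words and a TATA box whose first base is at position -36 from the TSS. A TATA box stood in the 200 bases of no other member and in those of 2246 of the 22350 protein-coding genes, and the Sp word stood in 38.0% of all genes and also in Ccr9 and S1pr1. Cxcr5 held an E box (9.64% of all genes) and a CTCF word (8.77% of all genes). Ccr7 held a Runx word (3.33%), a KLF word (25.2%) and, close to the start, an Ets word read on the other strand (6.06%). Gpr183 and Ccr2 held none of the 12 words. The E box and EBF1 words read the same on both strands, the KLF and Sp words differ by 1 letter, and matches that overlap are shown as a single run of capitals. A match is a run of letters and does not show that a factor was bound, and no match says only that these letters are not in the window.

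Around the promoters, most of the receptor genes lay in dense groups of DHS. The median member had 17 DHS in its window of gene body and 50 kb flanks, against 5 for all protein-coding genes, whose quartiles were 1 and 9. Cxcr5 and Gpr183 had 26 each, more than 99.49% of genes, Ccr7 had 23, Ccr6 had 18, and Cxcr4 and S1pr1 had 17 each. S1pr4 had 13, Ccr9 had 9 in a longer window, and Ccr2 had 5, the median of all genes. Per 100 kb of window the median member had 16.25 DHS and the median gene 3.384. The 7 genes other than Ccr9 and Ccr2 held 140 of the 154 DHS.

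**Figure D2:**
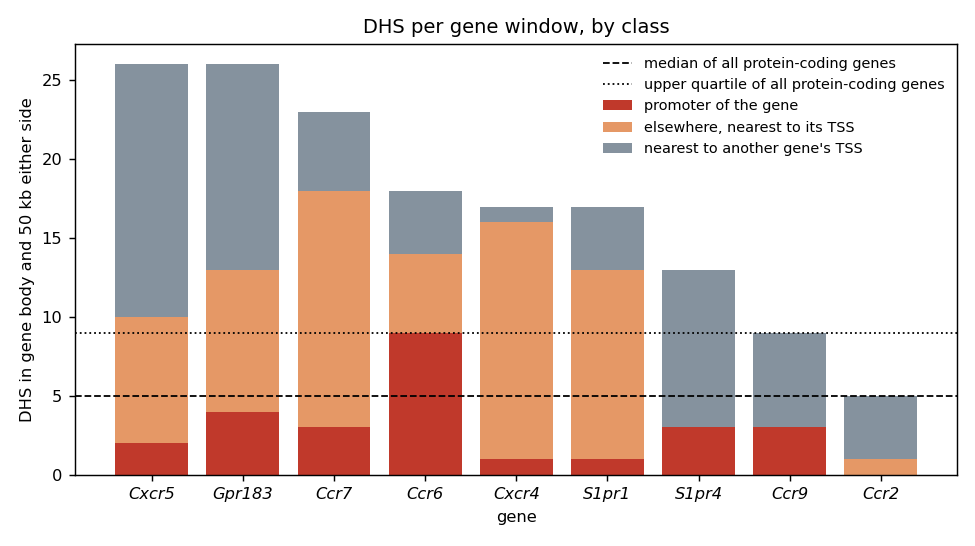
Number of DHS in each gene window (y axis), split into DHS at the promoter of the gene, DHS elsewhere whose nearest TSS belongs to the gene, and DHS nearest to the TSS of another gene; lines mark the median (5) and upper quartile (9) of all protein-coding genes. Cxcr5 and Gpr183 reach 26, with many DHS nearest to other genes, whereas nearly all 17 in the Cxcr4 window are nearest to Cxcr4.

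Gene windows also hold neighbours, so DHS were assigned to the nearest TSS. Such a count can rise where other TSSs are far away, and the part of this spacing was not tested. Other protein-coding genes with a TSS in the window numbered 0 for Cxcr4, Ccr7 and S1pr1 and 1 for Ccr6, Gpr183 and Ccr2. They numbered 2 for Cxcr5 and 4 for Ccr9 and S1pr4. By nearest TSS, 92 DHS in the genome belonged to a member, with a median of 13 per member against 1 for all protein-coding genes. At least 10 were found at 6 members, Cxcr4 (19), Ccr7 (18), Ccr6 (14), S1pr1 (14), Gpr183 (13) and Cxcr5 (10), while 2.38% of all protein-coding genes reached that number. Ccr9 had 2, and S1pr4 and Ccr2 had 1 each. At 5 of these 6 genes, all but Gpr183, the strongest of the DHS was outside the promoter, against 35.7% of the protein-coding genes with at least 10 such DHS and at least 1 of them at the promoter. At Cxcr4 (234.93 outside, 234.06 at the promoter) and at Gpr183 (44.55 and 44.64) the scores were nearly tied, and with 1 library their order cannot be separated from the error of the assay. The number of DHS depends on how the caller divides a broad region. When DHS closer than 500 bp were merged, Cxcr4 went from 17 to 11 in its window and Ccr7 from 23 to 15, and 90.92% and 97.83% of genes still had fewer. With only peaks at or above the median score, no member had 10 nearest DHS, and the most was 9, at Ccr7 and S1pr1. The share of all genes was not computed at that setting. With coding TSSs only, Cxcr4 had 35 and S1pr1 had 23.

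Of the 154 DHS, 26 were at a promoter of the member, 21 at promoters of other genes and 107 at no promoter. Of these 107, 70 were intergenic, 33 were in introns and 4 in exons. The member promoter DHS had a median score of 35.34, lower than the 53.32 of all promoter DHS, and a median width of 1196 bp, wider than the 941 bp of all promoter DHS. The 107 distal DHS had a median score of 30.59, against 24.33 for all distal DHS.

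**Figure D3:**
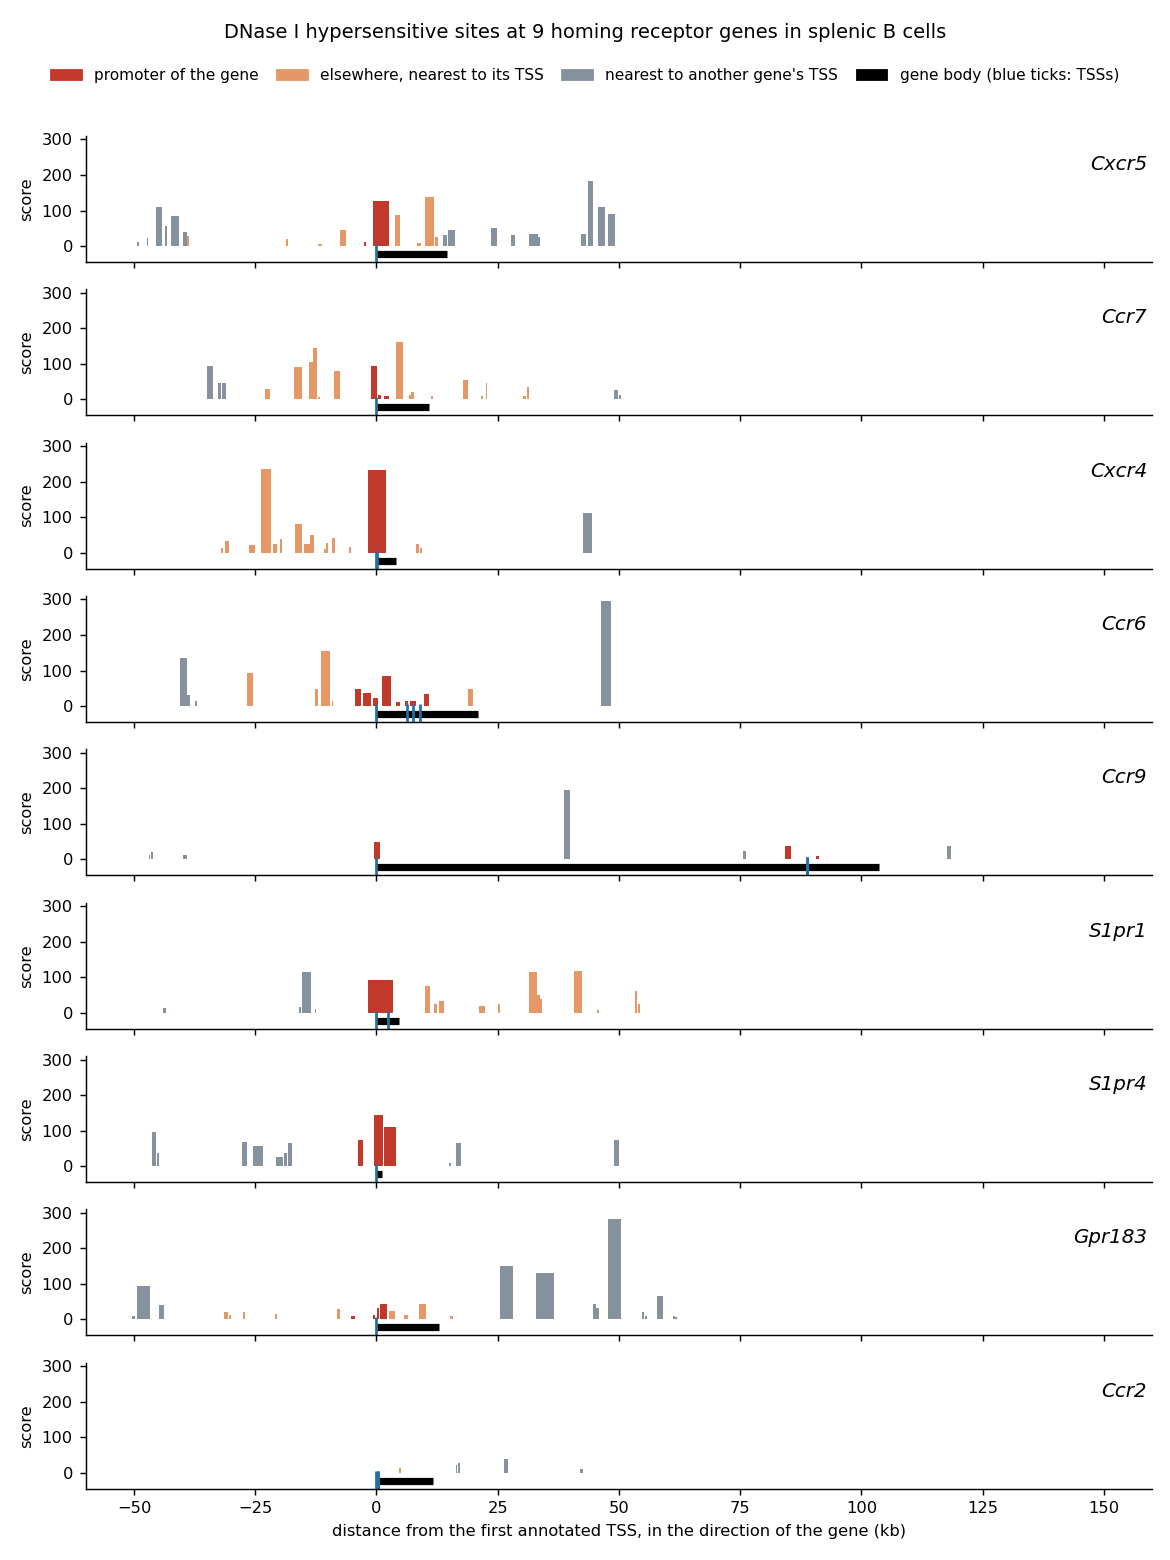
DHS around each gene (x axis, distance from the first annotated TSS in kb, upstream to the left; y axis, score without a stated unit; bar width is the width of the DHS). Tall DHS away from the promoter that are nearest to the gene are seen upstream of Cxcr4 (234.93), Ccr7 (144.47) and Ccr6 (155.34). Others are inside Cxcr5 (138.38) and Ccr7 (160.97) and downstream of S1pr1 (116.81), and Ccr2 has a DHS of 12.15.

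Cxcr5 (ENSMUSG00000047880.7, chr9:44319871-44334504, minus strand) encodes the receptor for CXCL13 that brings B cells into follicles. Its TSS was covered by a DHS 3389 bp wide at chr9:44331935-44335323, with a score of 126.88, that ran from the upstream side into the intron. A weaker promoter DHS of 10.42 was centred at -2309 bp, where minus denotes upstream of the TSS. Inside the gene, an intronic DHS of 87.41 was centred at +4357 bp, and the strongest DHS nearest to Cxcr5, with a score of 138.38, was at chr9:44322618-44324516, centred at +10937 bp in the intron. The promoter DHS belonged to a run of 19 DHS over 67943 bp in which no gap reached 10 kb, and DHS covered 23.98% of the window. The run also passed the promoter of the neighbour Bcl9l, and the highest score in the window, 181.93, belonged to a DHS nearest to C030014I23Rik.

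Ccr7 (ENSMUSG00000037944.8, chr11:99005510-99016391, minus strand) encodes the receptor for CCL19 and CCL21 that leads lymphocytes to the T cell zone and activated B cells to its border. The DHS over its TSS, chr11:99016260-99017519, scored 93.42, and 2 weaker promoter DHS inside the gene scored 12.80 and 9.85. Away from the promoter the strongest was an intronic DHS of 160.97 at chr11:99011004-99012359, centred at +4710 bp. Upstream, in a stretch that also held a weak DHS of 6.90 at -11811 bp, 4 DHS scored 80.86 at -8127 bp, 144.47 at -12655 bp, 105.04 at -13558 bp and 91.52 at -16201 bp. The promoter of Ccr7 was thus exceeded by 3 DHS nearest to its own TSS. No other protein-coding gene had a TSS in the window, and 18 of the 23 DHS were nearest to Ccr7, with the remaining 5 nearest to Smarce1 or Tns4.

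Gpr183 (ENSMUSG00000051212.7, chr14:122351553-122364415, minus strand), also called EBI2, encodes the oxysterol receptor that holds activated B cells at the outer follicle. It lies within an intron of Ubac2, and all 26 DHS of its window were in introns of that gene. The 4 promoter DHS were weak, with scores of 44.64 at +1457 bp, 33.32 at +326 bp, 13.10 at -567 bp and 11.09 at -4870 bp. The TSS fell in the gap between the second and the third of these. Outside the promoter the highest score among the DHS nearest to Gpr183 was 44.55, at +9502 bp. The 3 highest scores of the window lay towards the neighbour Gpr18, another receptor gene, with 283.83 at its promoter and 150.69 and 129.43 between the 2 genes, nearest to Gpr18. On the other side a DHS of 95.29 at -48029 bp was nearest to Timm8a2. Of the 26 DHS, 13 were nearest to Gpr183 and 10 to Gpr18, and which gene a DHS acts on cannot be read from distance.

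Cxcr4 (ENSMUSG00000045382.6, chr1:130484776-130488870, minus strand) encodes the receptor for CXCL12, which keeps cells in the bone marrow and directs them in germinal centres. A DHS 3781 bp wide with a score of 234.06 lay over its promoter at chr1:130486918-130490698. A DHS of almost the same score, 234.93, was found at chr1:130510576-130512723 in the intergenic region, centred at -22779 bp. Between them were 9 weaker DHS, the highest 80.54 at -16024 bp, and the whole run of 16 DHS spanned 41313 bp. Of the 17 DHS in the window, 16 were nearest to Cxcr4, 13 of them upstream and 2 downstream of the gene besides the promoter.

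Ccr6 (ENSMUSG00000040899.6, chr17:8429077-8449992, plus strand) encodes the receptor for CCL20, used by B cells in the lymphoid tissue of mucosa. Its 4 annotated TSSs gave it 9 promoter DHS, the most of any member. The DHS that covered a TSS were weak, with scores of 21.84, 15.72 and 15.67, and the nearest DHS to the fourth TSS was 650 bp away. The top promoter score, 85.71, belonged to an intronic DHS at chr17:8430225-8432040. Upstream of the gene were DHS of 155.34, at chr17:8417696-8419525 and centred at -10467 bp, and of 93.28 at -26071 bp. The highest score of the window, 294.70, was at the promoter of Brp44l.

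S1pr1 (ENSMUSG00000045092.6, chr3:115413351-115417973, minus strand) encodes the S1P receptor that lymphocytes use to leave lymphoid organs and that holds B cells in the marginal zone. Its promoter DHS was 5040 bp wide, at chr3:115414599-115419638, and covered both TSSs. In the whole list, 47 DHS were wider. Its score was 91.46. The other strong DHS nearest to S1pr1 lay downstream of the gene, with 75.11 at +8132 bp, 115.33 at +29829 bp and 116.81 at +39103 bp, the last at chr3:115375648-115377280. Upstream, a DHS of 113.71 at -14414 bp was nearest to the TSS of Gm9889, at a distance of 14319 bp. The promoter DHS of S1pr1 also lay in the promoter window of Gm9889. That the DHS nearest to S1pr1 lay downstream therefore depends on this annotated TSS. With coding TSSs only, S1pr1 had 23 nearest DHS in place of 14, and no other protein-coding gene had a TSS in the window.

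S1pr4 (ENSMUSG00000044199.4, chr10:80961223-80962452, minus strand) encodes an S1P receptor found mainly on blood cells. Its annotated model is 1230 bp long, and a DHS of 142.88 at chr10:80961130-80962912 covered all of it. DHS of 110.96 at +2744 bp and 73.97 at -3281 bp also touched the promoter window. The gene lies in a crowded region, with the TSSs of Celf5, Gna11, Gna15 and Ncln in its window, and the top DHS was also within the promoter window of Ncln. By nearest TSS, 1 of the 13 DHS belonged to S1pr4, and this was the top DHS, centred at +431 bp. Because the promoter windows overlap, its score also counts as that of a promoter DHS of Ncln.

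Ccr9 (ENSMUSG00000029530.8, chr9:123587557-123691089, plus strand) encodes the receptor for CCL25, which guides lymphocytes to the small intestine and thymus. Its annotated TSSs are of 2 kinds, a far upstream TSS at 123587557 and 3 close together from 123676329 to 123676347. The top promoter DHS, 49.27 at chr9:123587089-123588340, was at the upstream TSS and also within the promoter windows of Gm17200 and Slc6a20a. None of the 3 downstream TSSs was covered, and the nearest DHS was between 1782 and 1800 bp away. Without the upstream TSS, a choice made after seeing the data, the top promoter score was 36.77, from a DHS shared with the promoter window of Gm17020, and the promoter DHS nearest to Ccr9 itself scored 11.07. The strongest DHS in the window, 194.20, was at the promoter of Lztfl1.

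Ccr2 (ENSMUSG00000049103.6, chr9:124016689-124028296, plus strand) encodes the receptor for CCL2 and CCL7, by which monocytes leave the bone marrow. No DHS touched the promoter window of any of its 3 TSSs, and the nearest was 4400 bp away from a TSS. This DHS, chr9:124021322-124021691, was the only one of the 5 in the window that was nearest to Ccr2, overlapped an exon of the gene and scored 12.15. DHS covered 2.332% of the window, the lowest share of the 9. In the Ccr2 promoter window 1.24% of the 31-base words occurred again in the assembly, against 15.7% at Cxcr5, the highest of the members; the read length is not known here, and the part of repeats in the missing DHS was not tested.

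The sequence of the strongest DHS away from the promoter that was nearest to the member is shown for 4 members at which it scored higher than the promoter. Each line gives the central 300 bases in mm9 on the minus strand, which is the strand of these genes, and capitals mark the words of the list above, TATA box and Sp word left out. The Cxcr5 and Ccr7 DHS are intronic and those of Cxcr4 and S1pr1 intergenic.
Cxcr5, chr9:44323417-44323716: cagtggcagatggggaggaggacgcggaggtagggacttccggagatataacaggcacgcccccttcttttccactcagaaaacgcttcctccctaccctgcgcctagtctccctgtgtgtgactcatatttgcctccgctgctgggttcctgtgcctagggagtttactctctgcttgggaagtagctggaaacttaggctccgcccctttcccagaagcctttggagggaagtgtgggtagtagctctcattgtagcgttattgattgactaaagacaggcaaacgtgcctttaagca
Ccr7, chr11:99011531-99011830: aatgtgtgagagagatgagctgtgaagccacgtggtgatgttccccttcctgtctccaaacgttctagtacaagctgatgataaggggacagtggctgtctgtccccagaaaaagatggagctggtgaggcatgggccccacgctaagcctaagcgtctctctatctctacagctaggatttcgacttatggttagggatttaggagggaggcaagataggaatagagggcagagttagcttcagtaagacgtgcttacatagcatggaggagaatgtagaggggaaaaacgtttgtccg
Cxcr4, chr1:130511499-130511798: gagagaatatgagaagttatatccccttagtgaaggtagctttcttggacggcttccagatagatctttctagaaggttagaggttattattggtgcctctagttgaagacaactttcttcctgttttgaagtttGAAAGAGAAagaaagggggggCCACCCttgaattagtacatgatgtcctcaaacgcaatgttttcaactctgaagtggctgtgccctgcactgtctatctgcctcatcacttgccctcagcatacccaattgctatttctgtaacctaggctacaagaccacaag
S1pr1, chr3:115376314-115376613: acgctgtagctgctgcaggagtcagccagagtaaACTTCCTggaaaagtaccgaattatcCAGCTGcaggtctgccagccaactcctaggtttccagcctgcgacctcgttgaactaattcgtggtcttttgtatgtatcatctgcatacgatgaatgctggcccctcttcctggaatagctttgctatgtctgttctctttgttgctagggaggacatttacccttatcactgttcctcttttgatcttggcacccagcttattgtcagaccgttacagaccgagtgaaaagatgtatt

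No word was in all 4 sequences. Those of Cxcr5 and Ccr7 held none of the words in their central 300 bases, that of Cxcr4 held an IRF and a KLF word, and that of S1pr1 an Ets word and an E box.

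Over all 95 DHS assigned to the receptor genes, the central 300 bases held the Ets word in 17, or 17.9% (95% Wilson interval 11.5 to 26.8%), while 10.75% of all DHS held it. By class, it was in 5 of 26 promoter DHS (8.669% of all promoter DHS) and in 12 of 69 distal DHS (12.63% of all distal DHS). The interval is that of the 95 together, most of them distal, and none was computed by class. It held the share of all distal DHS but not that of all promoter DHS. The EBF1 word was in 3, or 3.16% (1.08 to 8.88%), against 12.64% of all DHS; EBF1 is a central factor of the B cell lineage. By class, it was in 1 of 26 promoter DHS (16.08% of all promoter DHS) and in 2 of 69 distal DHS (9.533% of all distal DHS). For the other words found, the interval held the share of all DHS. The IRF word was in 4.21% against 9.258%, the Runx word in 3.16% against 6.787% and the CTCF word in 9.47% against 13.65%. The E box was in 15.8% against 17.47%, the KLF word in 24.2% against 26.80%, the Oct word in 3.16% against 1.641% and the Fox word in 2.11% against 3.631%. When the whole DHS was searched, the intervals of the Ets word (30.5%, 22.2 to 40.4%, against 25.13%) and of the EBF1 word (25.3%, 17.6 to 34.8%, against 30.01%) held the share of all DHS, whereas that of the IRF word did not, at 14.7% (8.99 to 23.2%) against 24.64%.

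The NF-kappaB word was in 0 of the 95, which allows a share of up to 3.16%, and in 1.243% of all DHS, so a difference was not detectable with this number of DHS. The element bound by p53, the factor the study is about, was likewise in 0 of the 95. Over whole DHS it was also in 0 of the 95, while 1.020% of all DHS held it. The same limit of 3.16% applies, so a difference was not detectable here either. Intervals and limits cover counting error only, and DHS of 1 gene are neighbours and not independent. The 95 DHS had a median GC content of 48.0% and a median width of 767 bp, close to the 49.3% and 760 bp of all DHS.

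Other chemokine receptor genes had fewer and weaker promoter DHS than the members. A promoter DHS was found at 9 of 17, or 52.94%, near the share of all genes. When only DHS at or above the median score counted, the number was 4 of 17, against 50.3% of all genes. The highest top scores were 69.04 at Ccr10, a receptor of plasma cells, and 44.33 at Cxcr7, a scavenger of CXCL12, both below the median of the members. The lowest were 8.43 at Ccbp2, a scavenging receptor, 9.82 at Ccr4 and 22.19 at Cxcr3, receptors of T cell subsets. Their windows held between 1 and 14 DHS, with a median of 5, and none of the 17 had at least 10 DHS nearest to its own TSSs, against 6 of the 9 members. At Xcr1, 64.1% of the 31-base words of the promoter window were repeated, so a missing DHS there says little.

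Other receptors for lipids came between these and the members in number of DHS. Of 6 such genes 5 had a promoter DHS (57.0% of all genes), all but S1pr5, the S1P receptor of NK cells. The median window held 10 DHS, and 3 of the 6 had at least 10 DHS nearest to their own TSSs (2.38% of all genes). For the ligands the count was 2 of 8, Ccl25 with 161.19 and Cxcl12 with 11.34, against 57.0% of all protein-coding genes. Of the 8 windows, 5 held no DHS at all, those of Ccl19 and Ccl21a among them. Over all 22350 protein-coding genes, 5135 windows held none. Ligands are made mostly by stromal and epithelial cells. Every 31-base word in the promoter windows of Ccl19 and Ccl21a was repeated in the assembly, so the absence of a DHS cannot be read there.

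Of 9 genes that make, export or break down S1P and the oxysterol ligand of Gpr183, 7 had a promoter DHS and Mfsd2b, an S1P exporter of red cells and platelets, and Cyp7b1, an enzyme of oxysterol synthesis, had none. Over all protein-coding genes, 57.0% had a promoter DHS. Of the 9, 4 had a promoter DHS at or above the median score, a share of 44.44%, near the 50.3% of all genes. All 18 genes of Gi signalling and migration had a promoter DHS, with a median top score of 166.5. At least 10 DHS nearest to their own TSSs were found at 4 of the 18, against 2.38% of all genes. A promoter DHS was also present at all 6 genes of regulators and entry partners, with a median of 227.0. The regulators include Klf2, which activates S1pr1, and Cd69, which removes S1pr1 from the surface. The medians of both lists were above the 92.44 of the receptors, as a description of this peak list.

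**Figure D4:**
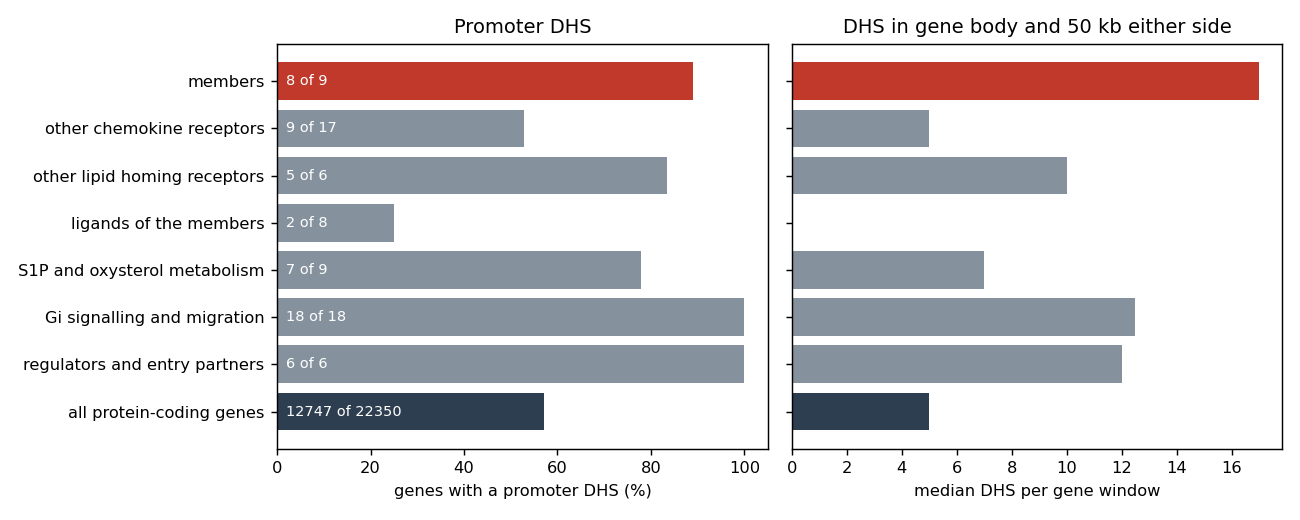
Share of genes with a promoter DHS (left, percent, with counts in the bars) and median number of DHS per gene window (right) for the members, 6 lists of genes of the same pathways and all protein-coding genes. The members have the highest median number of DHS, 17, while all 18 genes of Gi signalling and all 6 regulators have a promoter DHS.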

How the data were processed

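The deposited peak list of the DNaseI library gives the chromosome, start, end, a peak name of the MACS caller and a score, which is the authors' own value with no stated scale. Per the labels' processing notes, BWA 0.6.2, SAMtools and the mm9 build were used; for the DNaseI library, the version and settings of the caller, read filters and the use of the input library were not given in the sources used here. The methods of the study state a MACS version, a cutoff and a masking of reads for its ChIP-seq libraries, and whether these apply to DNaseI is not stated. Per the methods of the study, apoptotic cells were removed before the digestion. Peaks were counted from position 1 and matched to genes of GENCODE release M1 on the same build, with an overlap of at least 1 bp, on chromosomes 1 to 19 and X. The nearest TSS was found from the peak centre among TSSs of all annotated genes. Words were searched in the central 300 bp, on both strands, and the p53 element as adjacent decamers with at most 2 mismatches. The sequences are those of the mm9 assembly; a table of promoters from another build was left out.

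With 1 library there was no test, and values were set beside those of all protein-coding genes or all DHS. The 9 genes and the gene lists were chosen with earlier results of these data known. All 9 were named, and some values of neighbouring and listed genes, and 1 sequence, are not reported here. Of a list, genes without a promoter DHS were named where fewer than 6 lacked one, otherwise genes with one where fewer than 6 had one, otherwise the 3 highest and the 3 lowest; marker genes and regulators named outside that rule were chosen after their values were seen, as were the count of genes with at least 10 nearest DHS and the TATA box and Sp words. Where a symbol had more than 1 gene record, the record with the higher top score was used. The scripts for promoter overlap, nearest TSS and merging were tested on simulated data. The alternatives were a promoter window of 1 kb, the peak centre in place of overlap, only peaks that reached the median score, joining of peaks under 500 bp apart, coding TSSs only, flanks of 20 and 100 kb, and whole peaks for words. Python 3.11.15 with numpy 2.4.6, pandas 2.3.3 and matplotlib 3.10.9 was used.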

Additional observations from a re-analysis of the deposited data

How the results depend on the processing

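The count of 8 members with a promoter DHS held under the 5 other settings listed for it, and their median top score of 92.44 under the 3 in which it was computed; both also held without the upstream TSS of Ccr9, an alternative chosen after seeing the data. Counting only peaks at or above the median score, which removes DHS by construction, left 80 of the 154 DHS in the windows and 43 of the 92 nearest to a member TSS, and lowered the share of other chemokine receptors with a promoter DHS to 23.53%, of S1P and oxysterol genes from 77.78% to 44.44% and of ligands from 25% to 12.5%. Flanks of 20 kb left 91 DHS in the windows, and flanks of 100 kb, which stayed within 1.5 times the count, gave 227. Searching whole DHS, which are longer than their central part, raised the shares of the members for every word except the p53 element, which stayed at 0 of 95. For the E box (42.11% against 39.26% of all DHS), NF-kappaB (4.211% against 3.806%), KLF (55.79% against 53.18%) and Runx (22.11% against 18.32%) the share went from below to above that of all DHS. The side stayed the same for Ets (30.53% against 25.13%), EBF1 (25.26% against 30.01%), Oct (8.421% against 4.695%), IRF (14.74% against 24.64%), Fox (9.474% against 10.72%) and CTCF (23.16% against 32.05%). With coding TSSs only, Cxcr4 had 35 nearest DHS and S1pr1 had 23. Leaving out a replicate was not possible with 1 library. No paired analysis was possible because there is 1 DNaseI library. Depth, the scale of the score and the error between animals are unknown, so a weak DHS, or none, cannot be told from a lack of reads.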
